A study of Mus musculus with 7 samples.

Results

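The 37 genes described here encode ligands, extracellular regulators, receptors, SMAD transducers and target genes of TGF-beta, BMP and activin signalling. They were taken by gene symbol from the 56440 gene models of a deposited expression table, and each of the 37 symbols had 1 row. RNA sequencing had been carried out on basal cells sorted by flow cytometry from fresh mouse mammary glands on day 2 of lactation. The tested libraries were 3 from a3a6KO mice, titled DKO and Blg positive, and the controls were 4 from Ctrl mice, titled Blg negative. The submitters describe both as biological replicates. The name a3a6KO refers to the integrin subunits α3 and α6, which form laminin receptors with β partners. The abbreviation Blg is understood to denote a Cre recombinase driven by the beta-lactoglobulin promoter, which is active in luminal milk-producing cells and not meant to act in the basal cells that were sequenced. All mutants and no controls carried Blg, so the Cre and the loss of the integrins cannot be told apart. The strain, the age, the exact alleles and the sorting markers are not given in the labels.

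TGF-beta family ligands are secreted dimers that bring type I and type II serine/threonine kinase receptors together. TGF-beta is held in the matrix in a latent complex and has to be released, while follistatin, noggin and gremlin bind activins or BMPs and keep them from their receptors. TGF-beta and activin receptors phosphorylate SMAD2 and SMAD3, BMP receptors phosphorylate SMAD1 and SMAD5, both pairs enter the nucleus with SMAD4, and SMAD6 and SMAD7 inhibit the pathway. In the mammary gland TGF-beta is known as a restraint on ductal growth and on milk production, and basal cells are among the cells that make and receive these signals.

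Members with an unadjusted limma p under 0.05 or no overlap of the groups were considered for printing. A RefSeq window with a long enough stretch before the first annotated exon was also required, and motif content played no part. Promoter sequences are shown for the 2 members that met this, Tgfb1, which had the smallest p among the members, and Tgfbi, a TGF-beta target gene. They come from RefSeq windows on GRCm38.p6 and are printed 5′ to 3′ on the plus strand, from the window's start to the last base before the first annotated exon: chr7:25686752-25686999 for Tgfb1 (248 bases) and chr13:56609336-56609522 for Tgfbi (187 bases). Capitals mark CAGAC, the SMAD box, searched on both strands and so also read as GTCTG, and GGCGCC, a BMP-responsive SMAD element that reads the same on both strands.
Tgfb1: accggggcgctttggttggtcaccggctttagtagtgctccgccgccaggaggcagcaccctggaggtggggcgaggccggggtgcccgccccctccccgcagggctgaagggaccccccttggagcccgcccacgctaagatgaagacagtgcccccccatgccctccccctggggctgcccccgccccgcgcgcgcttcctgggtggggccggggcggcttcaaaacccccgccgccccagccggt
Tgfbi: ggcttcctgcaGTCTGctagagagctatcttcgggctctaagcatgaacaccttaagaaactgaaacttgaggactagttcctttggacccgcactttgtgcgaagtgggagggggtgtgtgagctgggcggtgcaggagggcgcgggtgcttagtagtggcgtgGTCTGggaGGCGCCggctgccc
The Tgfb1 stretch held neither motif and was 75% G and C. The Tgfbi stretch held 2 copies of CAGAC, both as GTCTG, and 1 of GGCGCC. RefSeq windows of 250 bases upstream of the start were matched for 24 of the 37 members and numbered 30, some members having several starts. CAGAC was found in 12 of these 30 windows (40%), against 42.2% of 32851 windows of the same length over all genes. GGCGCC was found in 9 of 30 (30%), against 9.59% of all windows, and the median G and C content was 64.2% in the members' windows, against 52.4% in all. Some windows of 1 gene overlapped, as for Ltbp4 and Smad5, so the windows are not independent. The 9 windows include overlapping ones of Ltbp4, where a shared site can be counted more than once. The target genes differed in what their windows held: Id3 had 2 copies of CAGAC and 0 of GGCGCC, and Id2 had 0 of CAGAC and 1 of GGCGCC. These matches are descriptions of letters and not of binding.

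The libraries held 9368418 to 18454773 reads in a3a6KO and 14480615 to 21548279 in Ctrl, as recovered from the deposited values. A value below is a normalised count, a gene's read count divided by the library's size factor by the authors, and is not corrected for gene length. The transcripts of both targeted integrins were present in the basal cells of each mutant, at 494, 581 and 818 for Itga3 in a3a6KO replicates 1 to 3 against 719, 542, 465 and 654 in Ctrl replicates 1 to 4, and at 9083, 8343 and 8574 for Itga6 in a3a6KO against 10338, 10603, 7764 and 8678 in Ctrl. Basal markers were high in each library, with Acta2, smooth muscle actin, at 546497 to 673537 in a3a6KO and 460944 to 727845 in Ctrl, and Oxtr, the oxytocin receptor, at 60989 to 110745 in a3a6KO and 99427 to 133250 in Ctrl. None of the 11 basal markers was at 0. Their fold changes were positive in 4 and negative in 7, with a median log2 fold change of -0.06. In 1 of them, Cnn1, each a3a6KO library lay below each Ctrl library, against 3.51% of all genes. It ranged from 57863 to 61280 in a3a6KO and from 61629 to 68189 in Ctrl. Markers of other cells were present too. All 15 endothelial markers had a higher mean log2 value in a3a6KO, against 49.5% of all genes tested. For 10 of the 15 the groups did not overlap, against 4.00% of all genes that were higher without overlap. The summed value of the 15 was 9956, 13268 and 14111 in a3a6KO against 4963, 5942, 5055 and 7853 in Ctrl. The 13 luminal markers, which include the milk protein genes Csn2 and Wap, summed to 85939 to 292570 in a3a6KO and 112960 to 676190 in Ctrl, with overlap. Their fold changes were positive in 2 and negative in 11, with a median log2 fold change of -0.33, and 0 had an unadjusted limma p under 0.05. The 11 fibroblast markers had a median log2 fold change of 0.02 and the 11 pericyte and vascular smooth muscle markers one of 0.53, with sums of 3926 to 5692 in a3a6KO and 3128 to 5266 in Ctrl. Of these last 11, 10 had a positive and 1 a negative fold change, against 49.5% of all genes above 0. An unadjusted limma p under 0.05 was seen in 3 of the 11, all higher in a3a6KO, against 3.55% of all genes. Of 12 immune markers, 7 were high enough to test, 3 of them with a positive and 4 with a negative fold change.

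No member differed between a3a6KO and Ctrl past an adjusted p of 0.05. The test was limma on log2(value + 1), two-sided, over the 16889 genes that reached a normalised count of 10 in 3 or more libraries, and it called 0 of the 35 members that passed this filter and 0% of all genes. The other 2 members, Bmp4 and Grem1, were below the filter. Unadjusted, 6 of the 35 tested members had p under 0.05 in limma, namely Tgfb1, Ltbp2, Fst, Id1, Id3 and Tgfbi, and all 6 were higher in a3a6KO. Over all genes tested, 6.32% had p under 0.05, made up of 3.55% that were higher and 2.78% that were lower. The members' adjusted p ran from 0.551 to 0.982. The count test of edgeR on recovered reads also called 0 members, with 4 at an unadjusted p under 0.05 where 6.07% of all genes were. DESeq2 called 1 member, Tgfb1, where it called 0.444% of all genes, and had 6 members at an unadjusted p under 0.05, where 6.61% of all genes were.

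The members' fold changes lay more often above 0 than below it. Of the 35 tested, 25 had a higher mean log2 value in a3a6KO and 10 a lower one, against 49.5% above 0 over all genes tested. The median log2 fold change, a3a6KO minus Ctrl, was 0.22 for the members and -0.0040 for all genes tested. In 3 members, Tgfb1, Bmpr2 and Id3, each a3a6KO library was above each Ctrl library, against 4.00% of all genes, and no member had all Ctrl libraries above all a3a6KO libraries, against 3.51%. The precision was limited: 19 of 35 members had a 95% interval that lay within 1 log2 unit of 0, against 60.1% of all genes. A p that misses the threshold does not show that a member's level was alike in both groups.

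**Figure D1:**
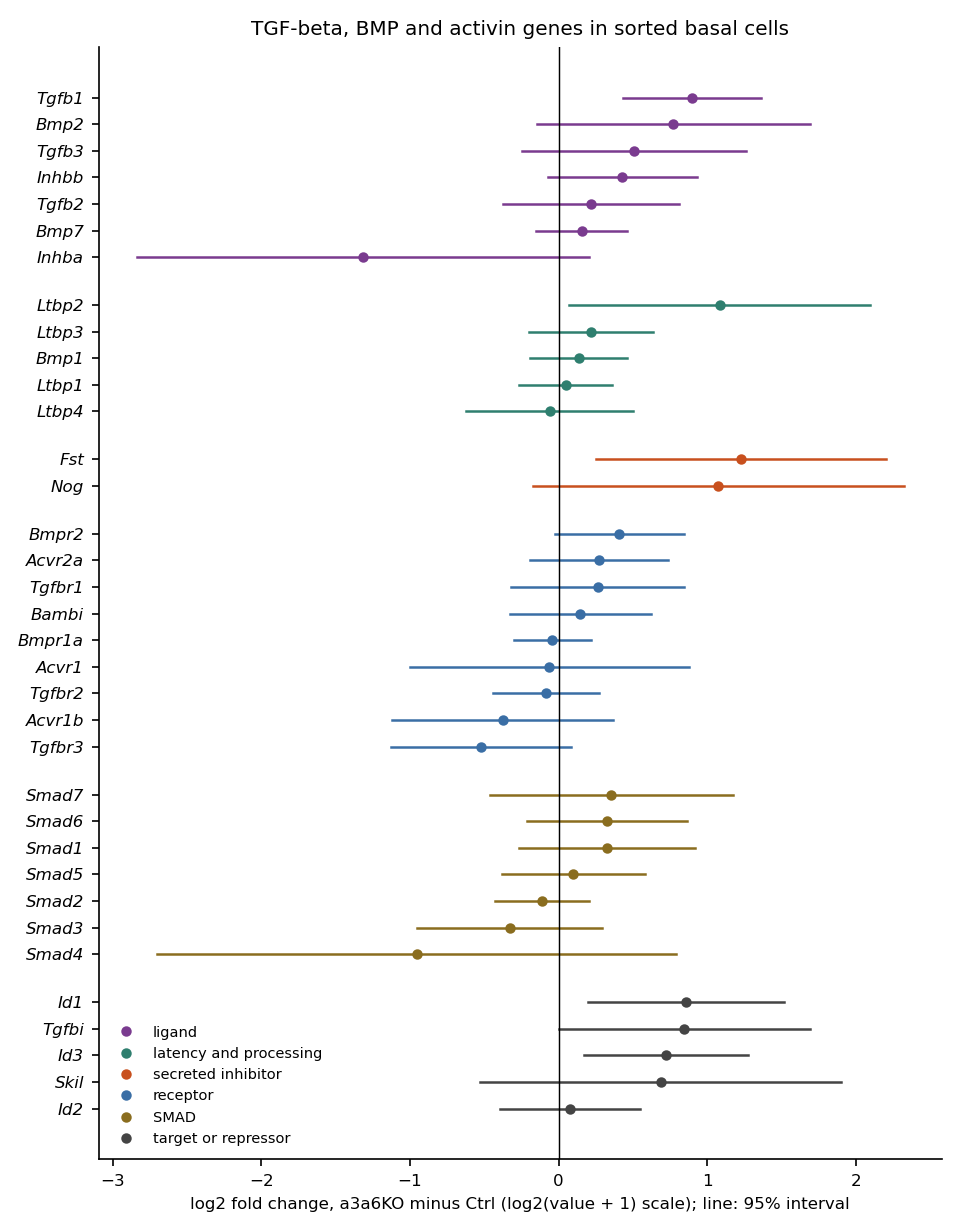
Log2 fold change of each of the 35 tested members, a3a6KO (n = 3) minus Ctrl (n = 4), on the log2(value + 1) scale, with the limma 95% interval as a line and colours for roles. The point lies right of 0 for 25 members and left of 0 for 10, and the interval is widest for Smad4 and Inhba.

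Ligand genes were mostly above Ctrl in their means, with Tgfb1 the furthest from 0 relative to its error. Tgfb1, the ligand for which the pathway is named (identifier GSMG0034184, chromosome 7, 25687000 to 25705076, mm10), had normalised counts of 279, 220 and 306 in a3a6KO replicates 1 to 3, against 113, 132, 162 and 170 in Ctrl replicates 1 to 4. Each of the 3 a3a6KO libraries lay above the highest Ctrl library. The means were 268 ± 43.9 in a3a6KO (SD, n = 3) and 144 ± 26.3 in Ctrl (SD, n = 4), and the log2 fold change was 0.90 (SE 0.20, 95% interval 0.44 to 1.36, adjusted p = 0.551 in limma). DESeq2 on recovered reads gave 0.88 with an adjusted p of 0.0382 and edgeR 0.89 with an adjusted p of 0.592. Leaving out 1 library gave 0.79 to 1.03. Endothelial cells, platelets and immune cells also make Tgfb1. The summed endothelial markers given above were also higher in each a3a6KO library than in any Ctrl library, and their part in this result was not tested. In sorted bulk RNA, a higher value from more cells of another type and one from more RNA per cell cannot be told apart.

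Tgfb3, which was the most abundant ligand transcript per kb of exon, was spread more widely in Ctrl than in a3a6KO. It had 1859, 1940 and 2139 in a3a6KO, against 804, 1234, 1413 and 2655 in Ctrl. Ctrl replicate 4 was above every a3a6KO library and the other 3 Ctrl libraries were below them, so the groups overlapped through 1 library, and the log2 fold change was 0.51 (SE 0.33, adjusted p = 0.826 in limma), or 0.25 without Ctrl replicate 1 and 0.82 without Ctrl replicate 4. Ttll5, on the opposite strand, overlaps the Tgfb3 model and had a mean of 9.22% of the Tgfb3 mean. Tgfb2, the third isoform, had 106, 153 and 237 in a3a6KO, against 125, 137, 129 and 148 in Ctrl, a log2 fold change of 0.22 (SE 0.26). Its a3a6KO libraries lay on both sides of the Ctrl range.

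The BMP ligands differed from each other in level by more than they differed between groups. Bmp7 (GSMG0023963, chromosome 2), a BMP of epithelial tissues, had 701, 609 and 635 in a3a6KO, against 626, 619, 499 and 591 in Ctrl, with overlap and a log2 fold change of 0.15 (SE 0.13, 95% interval -0.15 to 0.46). Bmp2, a ligand of the same branch, had 26.5, 46.2 and 42.7 in a3a6KO, against 13.1, 17, 29.4 and 32.5 in Ctrl. Replicates 2 and 3 of a3a6KO were above the Ctrl range and replicate 1 was inside it, and the log2 fold change was 0.77 (SE 0.41, adjusted p = 0.789 in limma). Bmp4 rested on 7, 8 and 4 reads in a3a6KO and 6, 4, 11 and 3 reads in Ctrl, with values of 5.80, 10.5 and 7.12 in a3a6KO and 6.02, 3.23, 10.1 and 2.27 in Ctrl, and was too low to test.

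The activin subunit genes had fold changes of opposite sign. Inhbb, which encodes the βB subunit of activin B and inhibin B, had 166, 132 and 185 in a3a6KO, against 132, 87.3, 121 and 140 in Ctrl, with a log2 fold change of 0.43 (SE 0.22, adjusted p = 0.789 in limma). Replicate 2 of a3a6KO lay within the Ctrl range and the other two above it. Inhba, which encodes the βA subunit, had 4.97, 1.32 and 12.5 in a3a6KO, against 9.04, 21, 17.4 and 9.08 in Ctrl, a log2 fold change of -1.32 (SE 0.67, adjusted p = 0.789 in limma). Replicates 1 and 2 of a3a6KO were below the Ctrl range, but they rested on 6 and 1 reads, and without a3a6KO replicate 2 the value was -0.67.

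Of the 5 latency and processing genes, Ltbp2 had the largest fold change and the other 4 lay between -0.06 and 0.22 on the log2 scale. Ltbp2, a fibrillin-binding matrix protein that resembles the latent TGF-beta binding proteins but does not itself bind latent TGF-beta, had 1932, 3805 and 2973 in a3a6KO, against 1435, 1143, 642 and 2881 in Ctrl. Ctrl replicate 4 lay inside the a3a6KO range and the other 3 Ctrl libraries below it. The means were 2904 ± 939 in a3a6KO (SD, n = 3) and 1525 ± 961 in Ctrl (SD, n = 4), and the log2 fold change was 1.08 (SE 0.45, adjusted p = 0.758 in limma), with values of 0.74 without Ctrl replicate 3 and 1.46 without Ctrl replicate 4. The 3 proteins that do tether latent TGF-beta to the matrix are encoded by Ltbp1, Ltbp3 and Ltbp4. Ltbp1 averaged 416 in a3a6KO and 402 in Ctrl, with a log2 fold change of 0.05 (SE 0.14). Ltbp3 averaged 5194 in a3a6KO and 4510 in Ctrl, at 0.22 (SE 0.18). Ltbp4 averaged 5174 in a3a6KO and 5478 in Ctrl, at -0.06 (SE 0.25), a sign that turned without Ctrl replicate 1, Ctrl replicate 2 or a3a6KO replicate 1. All 3 overlapped between groups. Bmp1, a metalloproteinase that cleaves procollagens, LTBP1 and the BMP antagonist chordin, averaged 1228 in a3a6KO and 1122 in Ctrl, at 0.14 (SE 0.14).

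Among the secreted inhibitors, follistatin had the largest positive fold change of all tested members. Fst (GSMG0011158, chromosome 13, 114452263 to 114458952), whose product binds activins, had 7372, 3448 and 6789 in a3a6KO, against 1268, 2082, 2482 and 4911 in Ctrl. Replicates 1 and 3 of a3a6KO were above every Ctrl library, while replicate 2 was below Ctrl replicate 4 and above the other three. The means were 5870 ± 2118 in a3a6KO (SD, n = 3) and 2686 ± 1567 in Ctrl (SD, n = 4), with a log2 fold change of 1.22 (SE 0.43, 95% interval 0.25 to 2.20, adjusted p = 0.694 in limma). It was 0.92 without Ctrl replicate 1 and 1.57 without Ctrl replicate 4. Nog, noggin, an antagonist of BMPs, had 18.2, 30.3 and 78.3 in a3a6KO, against 8.03, 24.2, 18.4 and 18.9 in Ctrl, a log2 fold change of 1.08 (SE 0.55, adjusted p = 0.789 in limma). One library, a3a6KO replicate 3, was far above all others, and without it the value was 0.51. Grem1, gremlin 1, another BMP antagonist, had 8 reads in a3a6KO replicate 1, a value of 6.63, and 0 reads in the other 6 libraries, where a count of 0 allows up to 3 reads.

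**Figure D2:**
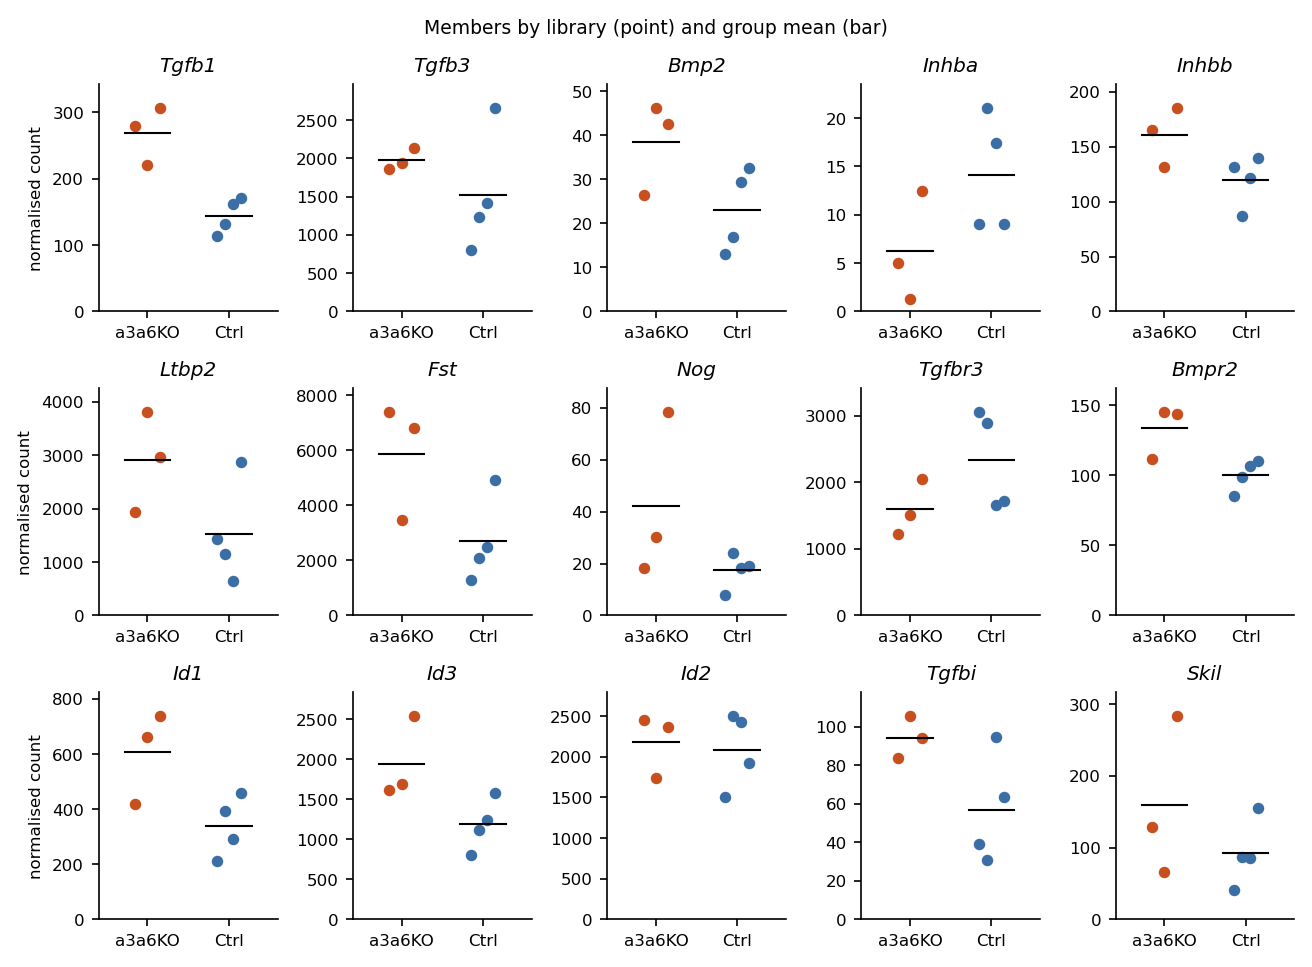
Normalised counts of 15 members in each library (points) with the group mean (bar), a3a6KO (n = 3) left of Ctrl (n = 4), on linear axes from 0. Tgfb1, Bmpr2 and Id3 show no overlap, while for Tgfb3, Ltbp2 and Fst the highest Ctrl point, replicate 4, lies among or above the a3a6KO points.

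The receptor genes were divided between the directions, 4 with a positive and 5 with a negative fold change, and 0 of the 9 had an unadjusted limma p under 0.05. Bmpr2, the type II BMP receptor, was the 1 receptor gene with no overlap. It had 112, 145 and 144 in a3a6KO, against 85.3, 98.6, 106 and 110 in Ctrl. The lowest a3a6KO library and the highest Ctrl library were close together, and the log2 fold change was 0.41 (SE 0.19, adjusted p = 0.789 in limma). An unnamed model on the other strand shares 451 bases with Bmpr2 and had a mean of 17.6% of the Bmpr2 mean. Tgfbr3, betaglycan, a co-receptor that presents TGF-beta and also binds inhibin, had 1226, 1515 and 2050 in a3a6KO, against 3049, 2893, 1664 and 1725 in Ctrl. The Ctrl libraries formed a high and a low pair, and the low pair lay inside the a3a6KO range. The log2 fold change was -0.52 (SE 0.27, adjusted p = 0.789 in limma).

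Among the core signalling receptors, Tgfbr2 and Bmpr1a had narrow spreads and Tgfbr1 a wider one. Tgfbr2, the type II TGF-beta receptor, had 882, 889 and 897 in a3a6KO, against 818, 1151, 796 and 1046 in Ctrl, so that the a3a6KO libraries lay within 1.02-fold of each other and inside the Ctrl range. Its log2 fold change was -0.08 (SE 0.16, 95% interval -0.44 to 0.27). Bmpr1a, a type I BMP receptor, had 1821, 1586 and 1551 in a3a6KO, against 1734, 1619, 1733 and 1710 in Ctrl, with the narrowest spread of any tested member. Its log2 fold change was -0.04 (SE 0.11, 95% interval -0.30 to 0.22), and 98.2% of all genes tested had a larger spread between libraries of a group. Tgfbr1, the type I TGF-beta receptor, had 251, 216 and 452 in a3a6KO, against 205, 229, 255 and 287 in Ctrl. Replicate 3 of a3a6KO stood apart, and the log2 fold change of 0.26 (SE 0.26) became -0.06 without it.

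The activin receptor genes and Bambi overlapped between the groups. Acvr1, a type I receptor used by BMPs, ranged from 233 to 396 in a3a6KO and from 184 to 644 in Ctrl, at a log2 fold change of -0.06 (SE 0.41). Acvr1b, the activin type I receptor, ranged from 51.4 to 105 in a3a6KO and from 65.1 to 132 in Ctrl, at -0.38 (SE 0.33). Acvr2a, a type II receptor for activins and BMPs, ranged from 483 to 792 in a3a6KO and from 451 to 629 in Ctrl, at 0.27 (SE 0.20). The Acvr2a model shares 511 bases with Orc4 on the opposite strand, whose mean was 86.0% of that of Acvr2a. The use of strand in counting is not given, so reads from shared bases cannot be told apart. Bambi, a receptor-like protein without a kinase domain that dampens signalling, ranged from 4984 to 7018 in a3a6KO and from 3856 to 6741 in Ctrl, at 0.15 (SE 0.21).

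None of the 7 SMAD genes had an unadjusted limma p under 0.05, and all 7 overlapped between groups. Smad2 and Smad3 carry TGF-beta and activin signals. Smad2 had 568, 556 and 601 in a3a6KO, against 581, 740, 553 and 628 in Ctrl, with a log2 fold change of -0.11 (SE 0.14, 95% interval -0.43 to 0.20). Smad3 had 196, 132 and 290 in a3a6KO, against 276, 301, 228 and 193 in Ctrl, with a log2 fold change of -0.33 (SE 0.28) that came to -0.05 without a3a6KO replicate 2 and -0.61 without a3a6KO replicate 3. The BMP transducers Smad1 and Smad5 had positive values, 0.32 (SE 0.26) for Smad1, with means of 2373 in a3a6KO and 1807 in Ctrl, and 0.10 (SE 0.21) for Smad5, with means of 227 in a3a6KO and 212 in Ctrl. The Smad1 mean in a3a6KO was raised by replicate 3 at 3514, and without that library the value was -0.0011. Of the inhibitory SMAD genes, Smad6 ranged from 297 to 321 in a3a6KO and from 173 to 351 in Ctrl, at 0.33 (SE 0.24). Smad7 ranged from 211 to 520 in a3a6KO and from 160 to 359 in Ctrl, at 0.35 (SE 0.36), or 0.08 when a3a6KO replicate 1 was left out and 0.72 when a3a6KO replicate 2 was.

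Smad4, the shared partner of the receptor-activated SMADs, had the widest spread of all tested members. It had 2186, 380 and 231 in a3a6KO, against 478, 819, 2190 and 1837 in Ctrl. One a3a6KO library and 2 Ctrl libraries were high, each more than double any of the others, so that high and low libraries occurred in both groups. The highest a3a6KO library was 9.45 times the lowest, and the highest Ctrl library 4.58 times the lowest. The SD between libraries of a group was 1.34 on the log2 scale, and 3.32% of all genes tested had a larger one. The log2 fold change was -0.96 (SE 0.77, 95% interval -2.70 to 0.79, adjusted p = 0.854 in limma), and leaving out a3a6KO replicate 1 made it -1.92, leaving out a3a6KO replicate 3 -0.30. On recovered reads edgeR gave -0.51.

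**Figure D3:**
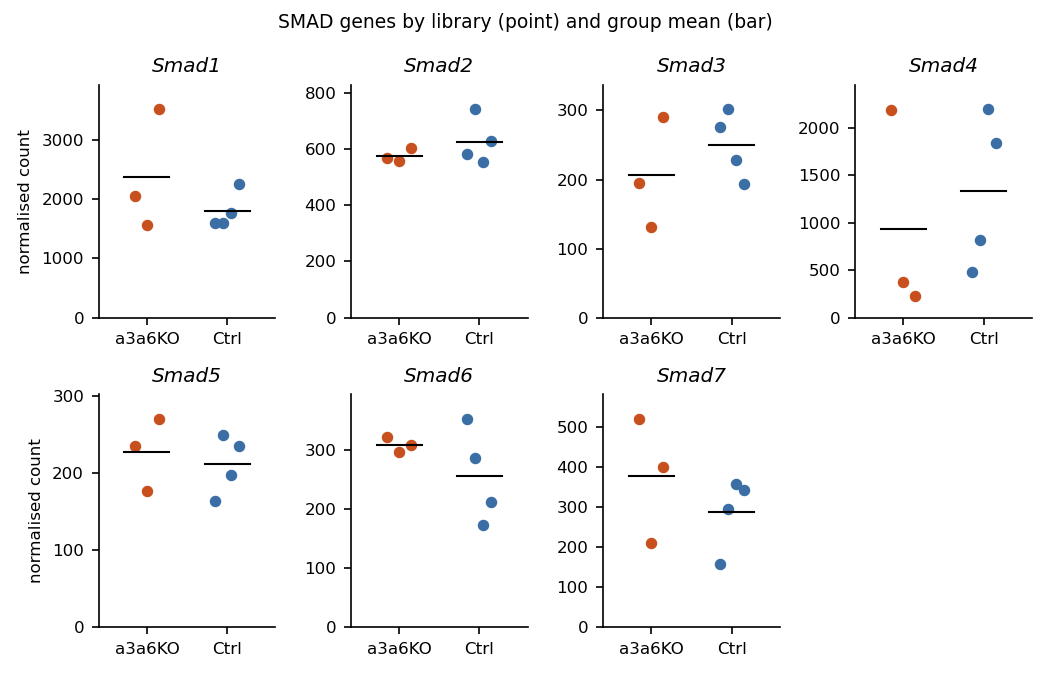
Normalised counts of the 7 SMAD genes in each library (points) with the group mean (bar), a3a6KO (n = 3) left of Ctrl (n = 4), on linear axes from 0. Smad2 is narrow in both groups, whereas Smad4 has 1 of 3 a3a6KO points and 2 of 4 Ctrl points far above the rest.

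All 5 target and repressor genes had a positive fold change, and 3 of them had an unadjusted limma p under 0.05, against 49.5% of all genes above 0 and 6.32% at such a p. Id1 and Id3 encode inhibitors of basic helix-loop-helix factors and are direct targets of BMP-activated SMADs. Id1 had 420, 662 and 737 in a3a6KO, against 213, 394, 291 and 457 in Ctrl. Replicate 1 of a3a6KO was below Ctrl replicate 4 and the other two were above all Ctrl libraries. The means were 606 ± 165 in a3a6KO (SD, n = 3) and 339 ± 108 in Ctrl (SD, n = 4), and the log2 fold change was 0.86 (SE 0.29, adjusted p = 0.691 in limma). Id3 (GSMG0027236, chromosome 4, 136143822 to 136145392) had 1613, 1689 and 2537 in a3a6KO, against 805, 1121, 1245 and 1576 in Ctrl. The groups did not overlap, by a small margin between a3a6KO replicate 1 and Ctrl replicate 4. The means were 1946 ± 513 in a3a6KO (SD, n = 3) and 1187 ± 319 in Ctrl (SD, n = 4), and the log2 fold change was 0.72 (SE 0.24, adjusted p = 0.691 in limma), which came to 0.52 without a3a6KO replicate 3.

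Id2, another member of the family, had 2456, 1737 and 2372 in a3a6KO, against 1503, 2498, 2429 and 1929 in Ctrl. Its groups covered nearly the same range, and the log2 fold change was 0.08 (SE 0.21, 95% interval -0.39 to 0.55). Whether it differed from that of Id1 or Id3 was not tested. Tgfbi, a secreted matrix protein induced by TGF-beta, had 83.7, 105 and 94.3 in a3a6KO, against 39.2, 30.7, 94.6 and 63.5 in Ctrl. Ctrl replicate 3 lay among the a3a6KO libraries, the other 3 Ctrl libraries below them, and the log2 fold change was 0.84 (SE 0.37, adjusted p = 0.785 in limma). Skil, which encodes SnoN, a repressor of SMAD-driven transcription that TGF-beta itself induces, ranged from 65.9 to 283 in a3a6KO and from 41.2 to 156 in Ctrl. Its log2 fold change of 0.69 (SE 0.54) was 0.15 without a3a6KO replicate 3. Id1 and Id3 are also expressed in endothelial cells, whose summed markers did not overlap between a3a6KO and Ctrl, and their part in the values of Id1 and Id3 was not tested.

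By role, the median log2 fold change was 0.43 for 7 tested ligands, 0.14 for 5 latency and processing genes, 1.15 for 2 secreted inhibitors, -0.04 for 9 receptor genes, 0.10 for 7 SMAD genes and 0.72 for 5 target or repressor genes, against -0.0040 for all genes tested. Unadjusted limma p under 0.05 was seen in 1 ligand, 1 latency gene, 1 inhibitor, 3 target genes and 0 of the receptor and SMAD genes, against 6.32% of all genes. With so few genes to a role, these counts are a description.

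The members covered about 3 orders of magnitude in level per kb of exon, with similar orders in both groups. Levels between genes are compared here as mean normalised count per kb of annotated exon. The highest were Fst at 1279 in a3a6KO and 585 in Ctrl, Bambi at 1119 in a3a6KO and 1019 in Ctrl, Id3 at 1087 in a3a6KO and 663 in Ctrl, Id2 at 897 in a3a6KO and 857 in Ctrl, and Ltbp4 at 800 in a3a6KO and 848 in Ctrl. In Ctrl, Fst was below Bambi, Id2, Ltbp4 and Id3, whereas in a3a6KO its mean stood first, but its libraries overlapped in level per kb with those of each of these 4 genes in both groups. Among TGF-beta ligands the order was Tgfb3, Tgfb1 and Tgfb2 in both groups, at 585, 53.2 and 28.5 in a3a6KO and at 451, 28.6 and 23.3 in Ctrl. Tgfb3 was above the others by far more than its spread, whereas the library ranges of Tgfb1 and Tgfb2 overlapped in Ctrl. Among BMP ligands Bmp7 was highest, at 161 in a3a6KO and 145 in Ctrl, ahead of Bmp2 at 10.8 in a3a6KO and 6.46 in Ctrl and of Bmp4 at 3.48 in a3a6KO and 2.4 in Ctrl. Of the BMP receptor genes, Bmpr1a and Bmpr2 were far apart, with Bmpr1a at 260 in a3a6KO and 268 in Ctrl and Bmpr2 at 7.43 in a3a6KO and 5.57 in Ctrl. This was not a split by receptor type. Acvr1, a type I receptor, was at 66.5 in a3a6KO and 77.0 in Ctrl. Acvr2a, a type II receptor, was at 116 in a3a6KO and 94.6 in Ctrl. The union of annotated exons was used as the length, and long untranslated exons that are not used in these cells would lower a level per kb.

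**Figure D4:**
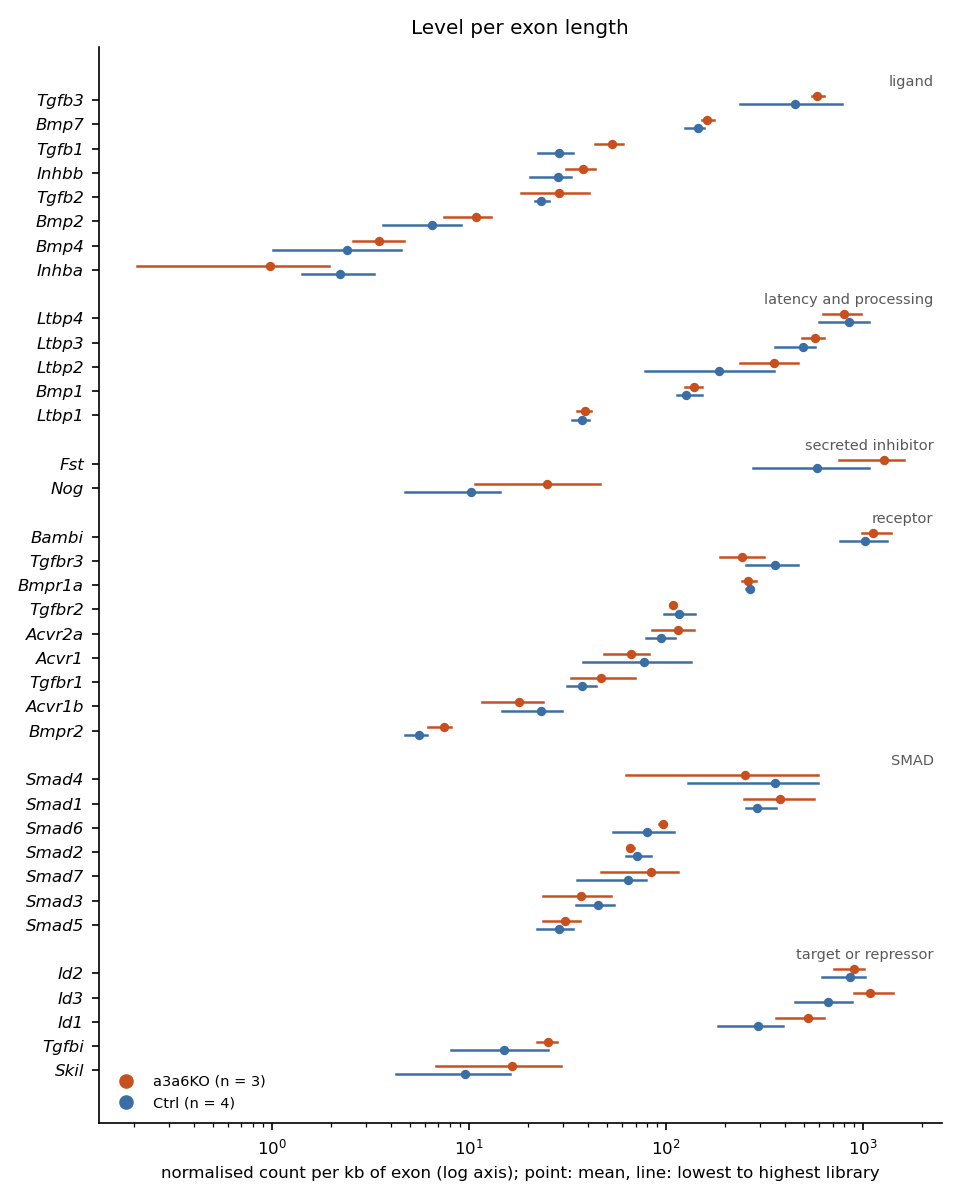
Mean normalised count per kb of exon (points, log axis) of 36 members in a3a6KO (n = 3, upper of each pair) and Ctrl (n = 4), with lines from the lowest to the highest library. Grem1, at 0 in Ctrl, is not drawn. Fst, Bambi, Id2, Id3 and Ltbp4 are highest, and Inhba, Bmp4 and Bmp2 are the lowest ligands.

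Libraries contributed unevenly to the members' values. Replicate 3 of a3a6KO was the highest of the 3 mutant libraries for 19 of the 35 tested members (54.3%) and the highest for 38.1% of all genes tested. Ctrl replicate 1 was the lowest of the 4 controls for 18 of 35 (51.4%), against 28.4% of all genes. Ctrl replicate 4 was the highest control for 13 of 35 (37.1%), against 24.5% of all genes. The same libraries were at the ends of their groups for the endothelial markers in part: their mean log2 value was 8.79, 9.29 and 9.43 in a3a6KO replicates 1 to 3 and 7.99, 8.18, 7.93 and 8.61 in Ctrl replicates 1 to 4, so a3a6KO replicate 3 and Ctrl replicate 4 were the highest of their groups and Ctrl replicate 1 was close to the lowest. Other marker lists shared parts of this. The luminal mean log2 values were 9.89, 10.1 and 11.1 in a3a6KO and 9.95, 9.86, 11.3 and 11.8 in Ctrl. The immune ones were 5.22, 5.38 and 6.66 in a3a6KO and 4.90, 5.30, 6.47 and 6.38 in Ctrl. Replicate 3 of a3a6KO was also the highest mutant library for basal and fibroblast markers. It was not the highest for pericyte and vascular smooth muscle markers or red blood cell markers. No cause of the uneven libraries was tested.

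**Figure D5:**
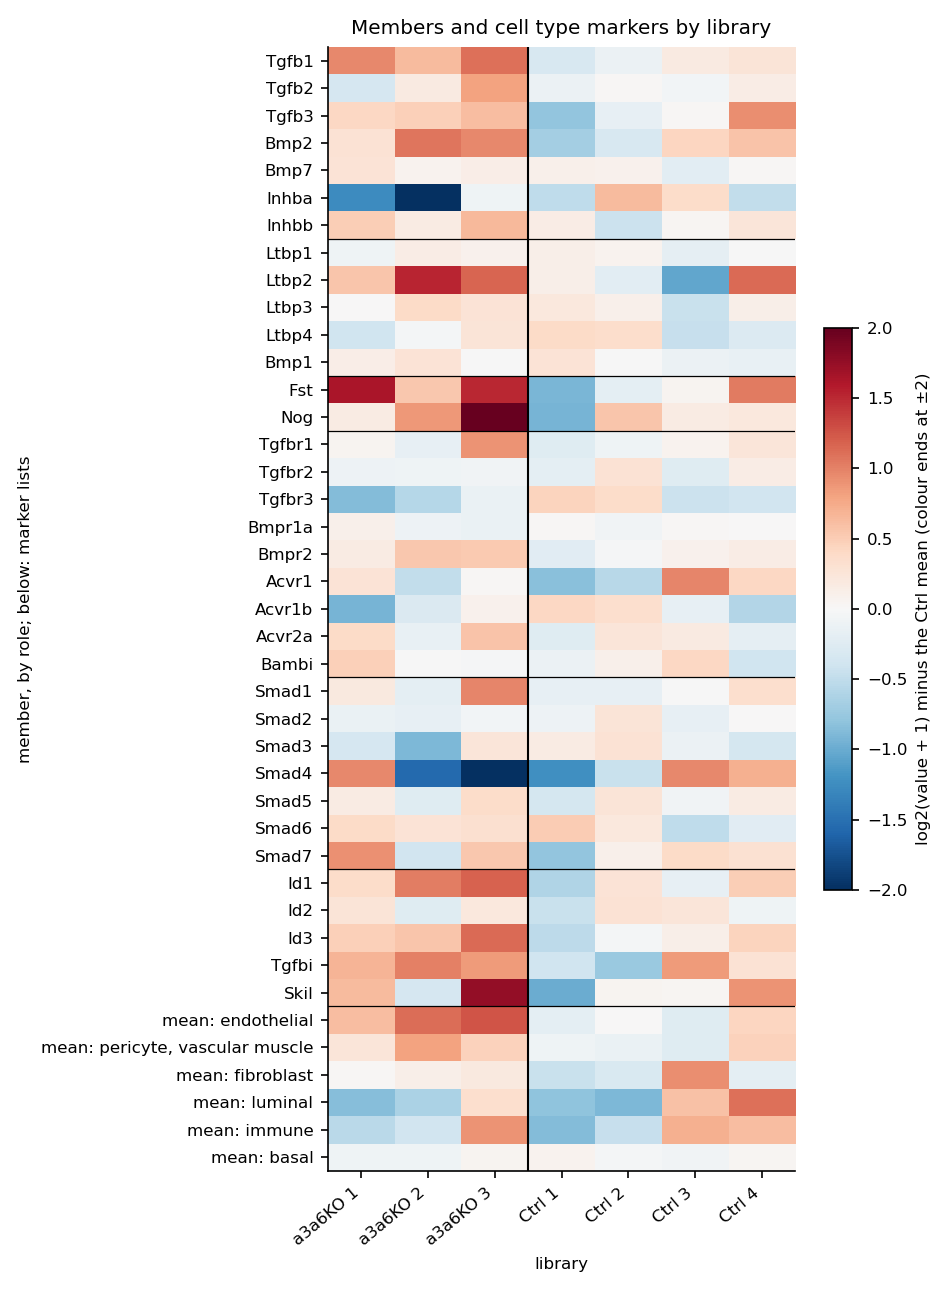
Difference of log2(value + 1) from the Ctrl mean for the 35 tested members, in blocks by role, and for the mean of 6 marker lists in the rows below, in 3 a3a6KO libraries and then 4 Ctrl libraries, with colours ending at 2 log2 units either way. Red means above the Ctrl mean, and the row of endothelial markers is red in all 3 a3a6KO columns.

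The wider pathway was looked up in a list of 115 further genes, of which 114 had a row and 84 passed the filter. None of the 84 had a limma adjusted p under 0.05, 10 had an unadjusted p under 0.05, all of them higher in a3a6KO, against 6.32% of all genes in either direction and 3.55% that were higher. The median log2 fold change was 0.17, with 58 positive and 26 negative, against 49.5% above 0 over all genes. In 6 the groups did not overlap, all higher in a3a6KO, beside 4.00% of all genes. Extracellular regulators made up 7 of the 10. Of the 26 tested regulators 21 had a positive and 5 a negative fold change.

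The 4 regulators with the smallest p were Fmod, Fstl1, Lrrc32 and Nrros. Fmod, fibromodulin, a small leucine-rich proteoglycan of the matrix that binds TGF-beta, had 13967, 14328 and 11995 in a3a6KO, against 8100, 8087, 9004 and 8596 in Ctrl, with no overlap and a log2 fold change of 0.67 (SE 0.13, adjusted p = 0.515 in limma). Fstl1, a follistatin-like secreted protein, had 3300, 3337 and 3042 in a3a6KO, against 2138, 2314, 2329 and 2369 in Ctrl, with no overlap and a log2 fold change of 0.50 (SE 0.11, adjusted p = 0.551 in limma). Both were narrow within each group. Lrrc32, known as GARP, and Nrros hold latent TGF-beta at the cell surface in place of the LTBPs. Lrrc32 had 744, 1241 and 2039 in a3a6KO, against 237, 464, 297 and 792 in Ctrl, a log2 fold change of 1.62 (SE 0.44, adjusted p = 0.551 in limma) with 1 Ctrl library above the lowest a3a6KO library. Nrros had 297, 280 and 203 in a3a6KO, against 100, 154, 195 and 173 in Ctrl, without overlap, at 0.76 (SE 0.25, adjusted p = 0.686 in limma).

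Among co-receptors Eng, endoglin, an endothelial co-receptor for TGF-beta and BMP ligands, had 1616, 2321 and 2352 in a3a6KO, against 806, 1059, 1050 and 1315 in Ctrl, with no overlap and a log2 fold change of 0.99 (SE 0.20, adjusted p = 0.515 in limma). Its signalling partner in endothelium, Acvrl1, ranged from 751 to 1302 in a3a6KO and from 775 to 890 in Ctrl, at 0.25 (SE 0.18). DESeq2 on recovered reads was read out for the 28 other pathway genes picked by smallest p within their lists. Among them it called Fmod, Fstl1 and Eng, where it called 0.444% of all genes. Lrrc32 and Eng are expressed by endothelial cells, and the part of the endothelial markers in these values was not tested. Acvr2b had a log2 fold change of -0.47 (SE 0.24) and Rgmb, a BMP co-receptor, one of 0.17 (SE 0.15).

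Further target genes mostly had positive fold changes. Of 16 other TGF-beta target genes, all tested, 15 had a positive and 1 a negative fold change, with a median of 0.35, against 49.5% of all genes above 0, and 1 had an unadjusted limma p under 0.05, a share near the 6.32% of all genes. That gene was Snai1, a repressor of E-cadherin, with 36.5, 27.7 and 39.1 in a3a6KO, against 7.03, 10.5, 10.1 and 24.2 in Ctrl, no overlap and a log2 fold change of 1.47 (SE 0.45, adjusted p = 0.626 in limma). Adam12 had 1.01 (SE 0.48) and Klf10 0.66 (SE 0.37), which was 0.20 without a3a6KO replicate 3. Of 7 tested BMP target genes 6 were positive and 1 negative, with Gata2 at 0.94 (SE 0.38, adjusted p = 0.741 in limma), Msx1 at 0.64 (SE 0.29), Hey1 at 0.57 (SE 0.28), which was 0.25 without a3a6KO replicate 3, and Id4 at -0.53 (SE 0.41). Gata2 and Hey1 are also endothelial genes.

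The remaining lists had no gene at an unadjusted limma p under 0.05. Of 20 tested intracellular transducers and inhibitors, 10 were positive and 10 negative, with a median of -0.0019. Pmepa1, a TGF-beta-induced inhibitor of SMAD signalling, ranged from 311 to 1299 in a3a6KO and from 60.2 to 718 in Ctrl, at 1.29 (SE 0.84), or 0.57 without Ctrl replicate 1. The values were 0.21 (SE 0.17) for Map3k7, the kinase TAK1, 0.37 (SE 0.33) for Tgif2, a SMAD co-repressor, and -0.34 (SE 0.42) for Zfyve9, a SMAD anchor. The integrin subunits that release TGF-beta from its latent complex gave -0.32 (SE 0.25) for Itgb8, -0.30 (SE 0.31) for Itgb5, -0.10 (SE 0.18) for Itgav and 0.03 (SE 0.41) for Itgb6, the last with a sign that turned to -0.16 in edgeR and in DESeq2. Of 23 other ligand genes with a row, 5 were high enough to test, and those with the smallest p were Gdf5 at -0.56 (SE 0.48), Lefty1 at -0.33 (SE 0.30), Bmp6 at 0.32 (SE 0.41) and Gdf10 at -0.19 (SE 0.66).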

How the data were processed

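RNA was sequenced from sorted mammary basal cells from SMARTer v4 libraries, as the labels' protocols state, in 3 a3a6KO and 4 Ctrl libraries grouped by genotype label. Replicate numbers follow accession order and pair nothing. The deposited signal values are read counts that the authors scaled by library size factors, per the file's title and the submitters' processing notes, which name DESeq2, STAR 2.4.0, FastQC, Picard, SAMtools and build mm10. The sources used here name no read counter and no strand setting (not given).

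Whole reads were recovered for 100% of values within 0.01 of a read, with 9368418 to 21548279 reads per library. In Ctrl replicate 1 a read is worth 1.00411, close to 1, but a step of 1 leaves only 15.7% of its values whole. Even numbers made up 61.8% to 63.8% of recovered counts from 1 to 20, so 1 read may not be 1 independent count. No molecular identifiers are named, and intervals and limits cover the spread between libraries or counting error only. The submitters call the replicates biological, and whether each came from its own mouse is not stated, so p-values measure the spread between these samples.

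log2(value + 1) was fitted with limma 3.58.1 (R 4.3.3), trended empirical Bayes, for the 16889 genes with at least 10 in at least 3 libraries, two-sided, with Benjamini-Hochberg adjustment over all of them and a threshold of 0.05. Fold changes on this scale understate changes of low genes. Alternatives were quasi-likelihood tests of edgeR 4.0.16 on the recovered reads, DESeq2 1.42.0 on the same reads, pseudocounts of 0.5 and 8, no filter and a filter at 50, quantile and TMM scaling, no trend, robust fitting, library weights and leaving out each library. Exon lengths were from GENCODE M21 and promoter windows from RefSeq on GRCm38.p6. The fitting script was tested on simulated counts. No pair of libraries of the same group agreed within sampling noise. The chi-square per gene between reads was 29.5 for Ctrl replicates 1 and 2 and 41.6 for Ctrl replicates 3 and 4. It was 80.1 to 104 for the other Ctrl pairs, so the controls were unevenly spaced, and the cause was not tested.

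Members and lists were chosen with earlier results of these data known. Values in every library are given for members with an unadjusted p under 0.1 or no overlap and for a fixed set of main ligands, receptors, SMAD and Id genes. Of each other pathway list up to 4 genes of smallest p are named, and of marker lists those of highest mean, not all of which are printed. Some genes that these rules name are not reported here. Gdf1, which shares a feature with Cers1, was left out.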

Additional observations from a re-analysis of the deposited data

How the results depend on the processing

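No paired analysis was possible because the labels give the groups no shared replicate numbers. Of 624 values of single members under 18 alternatives, 601 kept direction and call, and 24 of 35 members, 18 positive and 6 negative, never changed sign. Inhba, Nog and Bmp2 lack values where a filter drops them. DESeq2 called 75 genes (0.444% of all tested) and 1 member against 0 in limma, Tgfb1 at 0.88. Of the 28 other pathway genes picked by smallest p within their lists, it called Fmod (0.66), Fstl1 (0.49) and Eng (0.98). Its result for the rest of the other pathway genes was not read out. With 1 library left out, members without overlap numbered 3 to 11 (8 without Ctrl replicate 4, 11 without a3a6KO replicate 1, 8 without a3a6KO replicate 2) against 3, beside 14.1%, 15.3% and 16.2% of all genes under the same omissions, members at an unadjusted limma p under 0.05 numbered 3 (without a3a6KO replicate 3) to 7 against 6, and the members' median was 0.16 to 0.27. With fewer libraries non-overlap is easier to reach by construction. Library weights turned the sign for Tgfb2 (-0.0224), Ltbp1 (-0.0046), Bmpr1a (0.0196), Acvr1 (0.10), Itgb5 (0.049) and Gdf10 (0.0067), and edgeR and DESeq2 for Itgb6 (-0.16 in each). Leaving out 1 library turned the sign within ranges of -0.0769 to 0.50 for Tgfb2, -0.0097 to 0.12 for Ltbp1, -0.21 to 0.11 for Ltbp4, -0.0552 to 0.47 for Tgfbr1, -0.16 to 0.0146 for Tgfbr2, -0.11 to 0.0009 for Bmpr1a, -0.34 to 0.26 for Acvr1, -0.0161 to 0.28 for Bambi, -0.0011 to 0.59 for Smad1, -0.0374 to 0.27 for Smad5 and -0.0703 to 0.24 for Id2, and of -0.67 to 0.11 for Itgb5, -0.29 to 0.0178 for Itgav, -0.20 to 0.42 for Itgb6, -0.84 to 0.0612 for Id4, -0.0473 to 0.73 for Tgif2 and -0.77 to 0.11 for Gdf10. The cause of these changes was not tested. Without a sign change, leaving out 1 library also moved by over 1.5 times Bmp7 (0.0818 to 0.20), Inhbb (0.28 to 0.56), Ltbp3 (0.068 to 0.33), Bmp1 (0.0676 to 0.23), Tgfbr3 (-0.72 to -0.35), Acvr1b (-0.61 to -0.10), Acvr2a (0.12 to 0.48), Smad2 (-0.17 to -0.029), Smad6 (0.16 to 0.50), Skil (0.15 to 1.19), Itgb8 (-0.48 to -0.097), Map3k7 (0.0879 to 0.38), Zfyve9 (-0.49 to -0.0062), Gdf5 (-1.03 to -0.16), Lefty1 (-0.55 to -0.12), Bmp6 (0.008 to 0.54), Acvr2b (-0.60 to -0.28), Acvrl1 (0.0516 to 0.45) and Rgmb (0.0818 to 0.22). The a3a6KO group has 3 libraries, the shallowest with 9368418 reads, and Inhba, Bmp4 and Grem1 rest on a few reads each. A gene's value does not show protein, ligand release or SMAD phosphorylation.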

Other observations

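The profile of Smad4 over the 7 libraries was shared closely by other abundant genes. The search covered tested genes with a mean of at least 50, without unnamed models and genes named only by Gm and a number. Among these, the highest Pearson correlations with Smad4 on the log2 scale were those of Slk (0.993), a Ste20-like kinase, Akt1 (0.993), a serine/threonine kinase, Rbm24 (0.992), an RNA-binding protein, Ankrd11 (0.991), a chromatin regulator, Dnajc21 (0.991), a ribosome assembly factor, and Dcbld2 (0.990), a membrane protein. Slk had 1497, 241 and 197 in a3a6KO, against 284, 538, 1471 and 1214 in Ctrl, and Akt1 had 3963, 1243 and 911 in a3a6KO, against 1270, 1839, 4016 and 3922 in Ctrl. In both, as in Smad4, replicate 1 of a3a6KO and replicates 3 and 4 of Ctrl were the high libraries. These genes were picked for the likeness after their values were seen, the 7 points share library and depth, and the search ran over all named genes of that level, so the correlations are a description and have no test.

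Red blood cell transcripts also differed in level between the libraries. Of 6 such genes looked up, 3 were high enough to test, namely Hba-a1, Hba-a2 and Hbb-bs. Their summed value was 618, 756 and 603 in a3a6KO, against 24.1, 184, 232 and 352 in Ctrl, with no overlap. Hbb-bt, Alas2 and Slc4a1 were below the filter and outside the sum, Slc4a1 at 0 in all libraries. Hba-a1, an alpha globin, had 333, 421 and 395 in a3a6KO, against 16.1, 63.0, 140 and 134 in Ctrl. Hbb-bs ranged from 199 to 257 in a3a6KO and from 8.03 to 135 in Ctrl, also without overlap. Hba-a2 did overlap, at 5.34 to 86.2 in a3a6KO and 0 to 82.5 in Ctrl. Thus 2 of the 3 tested genes were higher without overlap, against 4.00% of all genes. The part of blood or vessel cells in the members' values was not tested.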
